A study of Homo sapiens with 8 samples.

Results

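The 39 genes described here are a fixed list of interferon-stimulated and antigen presentation genes, taken by symbol from the 26760 genes of a read count table of LK2 cells. All 39 had a row in the table. LK2 is a cell line from a squamous cell carcinoma of the lung, and the study asked what DNp63, the N-terminally truncated form of the transcription factor TP63, does to its transcriptome. Poly-adenylated RNA was sequenced in 8 libraries, 2 in each of 4 groups. The DNp63 group overexpressed DNp63 from a constitutive vector, pLEX_306 for replicate 1 and pLEX_307 for replicate 2, and the GFP group carried GFP in the same pair of vectors. The induced group carried a doxycycline-inducible DNp63 vector, pLIX_403, and received 2 μg/ml doxycycline for 6 days, while the uninduced group held the same inducible cells without the drug. All 4 groups thus carried an introduced vector in a single cell line. The labels do not say whether replicates came from separate cultures or clones, so p-values measure the spread between these libraries, which may be technical. Each gene's spread was estimated over all 8 libraries together, and for DNp63 and GFP it includes the difference between the 2 vectors. The chi-square per gene between the 2 libraries of a group was 25.6 for DNp63 and 18.0 for GFP. It was 5.38 for induced and 3.91 for uninduced libraries. The effect of doxycycline and that of the DNp63 it induces cannot be told apart in the inducible cells.

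TP63 itself matched the labels. It reached 1845 and 3806 CPM (counts scaled to a common library total) in the DNp63 libraries, against 0.738 and 1.90 CPM in the GFP libraries. The induced libraries had 412 and 422 CPM, against 12.7 and 14.8 CPM in the uninduced libraries. The induced level was therefore lower than the constitutive level in every library. The libraries held between 2758158 and 10372248 counts, and both pLEX_306 libraries were the shallowest of the 8. A count of 3 corresponded to between 0.291 and 1.11 CPM, which sets the floor for single genes. The squamous keratin gene KRT14 had no count in any library, but other squamous markers were expressed. Of 7 squamous markers with enough counts to test, TP63 included, 6 were higher in DNp63 than in GFP libraries and SOX2 was lower. Mean levels were 208 against 0.502 CPM for KRT5, 475 against 4.07 CPM for KRT6A and 82.1 against 397 CPM for SOX2. Between induced and uninduced libraries 6 were also higher and SOX2 lower. Of 12 immune cell markers, 6 had no count anywhere and 11 averaged under 1 CPM. Their summed level was 3.68 to 4.27 CPM in DNp63 libraries, 2.54 to 3.69 CPM in GFP libraries, 0.493 to 2.36 CPM in induced libraries and 1.75 to 2.61 CPM in uninduced libraries, and its part in the results was not tested.

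Interferons are secreted proteins, and those of types I and III are released by cells on sensing foreign nucleic acids. Type I and III interferons act through JAK kinases on a complex that includes STAT2 and IRF9 and binds interferon-stimulated response elements (ISRE), while type II interferon acts on gamma-activated sites (GAS) and through the factor IRF1. Their targets include antiviral effectors and the class I pathway, in which proteasome peptides are carried by TAP into the endoplasmic reticulum and loaded onto HLA molecules paired with B2M. Class I loss is a known route by which carcinomas of the lung escape T cells.

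The promoters of 4 members are shown because their genes carry the results below: the member that rose with constitutive DNp63 (IRF1), the member that fell (HLA-C), an antiviral gene whose libraries separated in both vector systems (OAS3), and the shared class I light chain (B2M). Each runs 5′ to 3′ from upstream of the gene's start to 50 bases past it, in RefSeq's GRCh38.p14 annotation. Capitals mark an ISRE core, GAAANNGAA, in OAS3 and B2M and a GAS core, TTCNNNGAA, in IRF1, both searched on both strands, where matches may overlap; the HLA-C window held neither string. IRF1 lies on the minus strand at chr5:132490724-132491023, HLA-C on the minus strand at chr6:31272043-31272342, OAS3 on the plus strand at chr12:112938224-112938523 and B2M on the plus strand at chr15:44711267-44711566.
IRF1: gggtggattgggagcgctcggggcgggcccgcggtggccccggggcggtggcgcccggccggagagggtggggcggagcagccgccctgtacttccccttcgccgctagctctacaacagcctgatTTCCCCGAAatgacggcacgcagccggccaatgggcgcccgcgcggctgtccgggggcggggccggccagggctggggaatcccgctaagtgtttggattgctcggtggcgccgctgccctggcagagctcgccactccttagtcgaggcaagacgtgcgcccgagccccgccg
HLA-C: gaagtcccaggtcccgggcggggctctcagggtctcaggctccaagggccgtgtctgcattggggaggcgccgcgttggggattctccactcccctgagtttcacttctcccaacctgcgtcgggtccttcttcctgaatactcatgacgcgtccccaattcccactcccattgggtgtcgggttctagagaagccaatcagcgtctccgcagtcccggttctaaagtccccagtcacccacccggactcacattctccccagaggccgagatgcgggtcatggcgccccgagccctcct
OAS3: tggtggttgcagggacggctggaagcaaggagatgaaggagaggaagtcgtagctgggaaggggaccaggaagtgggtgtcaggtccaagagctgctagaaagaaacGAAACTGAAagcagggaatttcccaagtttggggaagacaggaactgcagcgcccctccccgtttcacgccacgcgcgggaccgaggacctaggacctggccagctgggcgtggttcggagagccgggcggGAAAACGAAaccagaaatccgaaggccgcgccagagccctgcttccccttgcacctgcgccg
B2M: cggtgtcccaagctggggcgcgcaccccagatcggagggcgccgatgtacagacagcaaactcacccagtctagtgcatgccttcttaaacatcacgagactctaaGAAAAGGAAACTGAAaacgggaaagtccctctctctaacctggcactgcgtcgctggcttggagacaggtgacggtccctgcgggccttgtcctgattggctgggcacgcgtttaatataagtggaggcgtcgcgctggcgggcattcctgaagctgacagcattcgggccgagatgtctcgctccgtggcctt
RefSeq promoters were matched for 31 of the 39 members, with DDX58 matched under its RefSeq symbol RIGI. The ISRE core occurred in 21 of these 31 genes (67.7%), against 9.86% of 27305 genes with a promoter. The GAS core occurred in 8 of 31 genes (25.8%), against 9.38% of all genes. A letter match is a description of the window and not a binding site. Members with an ISRE core included IFIT1, IFIT3 and ISG15, which averaged under 1 CPM in these cells.

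Part of the list was barely detected in LK2 cells, a smaller share than among all genes of the table. A mean below 1 CPM over the 8 libraries was taken as near zero, and 16 of the 39 members (41.0%) were at that level, beside 14051 of all 26760 genes (52.5%). These were IFIT1, IFIT2, IFIT3, MX2, OAS2, OASL, RSAD2 and XAF1 among the antiviral effectors, ISG15 and HERC5 of the ISG15 system, IFI44 and IFI44L, the class I gene HLA-F, the immunoproteasome subunits PSMB8 and PSMB9, and NLRC5, the transactivator of class I genes. OAS2, an RNase L-activating synthetase, had no count in any of the 8 libraries. Over all libraries IFIT2 and OASL had 1 count each, IFIT3 and PSMB8 had 2 each, and RSAD2, XAF1, HLA-F and PSMB9 had 3 each. IFIT1 had 6 counts, IFI44L had 7 and NLRC5 had 9. Some of these members overlap other genes in RefSeq. IFIT1, IFIT2 and IFIT3 overlap LIPA (399 counts), and RSAD2 overlaps CMPK2 (54 counts). How strand and overlaps were treated in counting is not stated, so low counts there may partly reflect reads lost or assigned to the other gene. By role, near-zero members were 8 of 12 antiviral effectors, 2 of 4 members of the ISG15 system, 2 of 4 other interferon-induced genes and 2 of 6 peptide supply genes, 1 of 7 sensors and transcription factors, and 1 of 5 class I molecules, while the checkpoint ligand CD274 was above that level. All 39 members together made up 0.0202% and 0.0304% of counts in DNp63 libraries, against 0.0241% and 0.0305% in GFP libraries. They made up 0.0332% and 0.0313% in induced libraries, against 0.0297% and 0.0301% in uninduced libraries. These shares overlapped between DNp63 and GFP and did not overlap between induced and uninduced libraries. With 2 libraries per group, values can separate without overlap where no difference exists. How many of all genes separate in this way was not counted, so separation of the genes below is a description only.

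**Figure D1:**
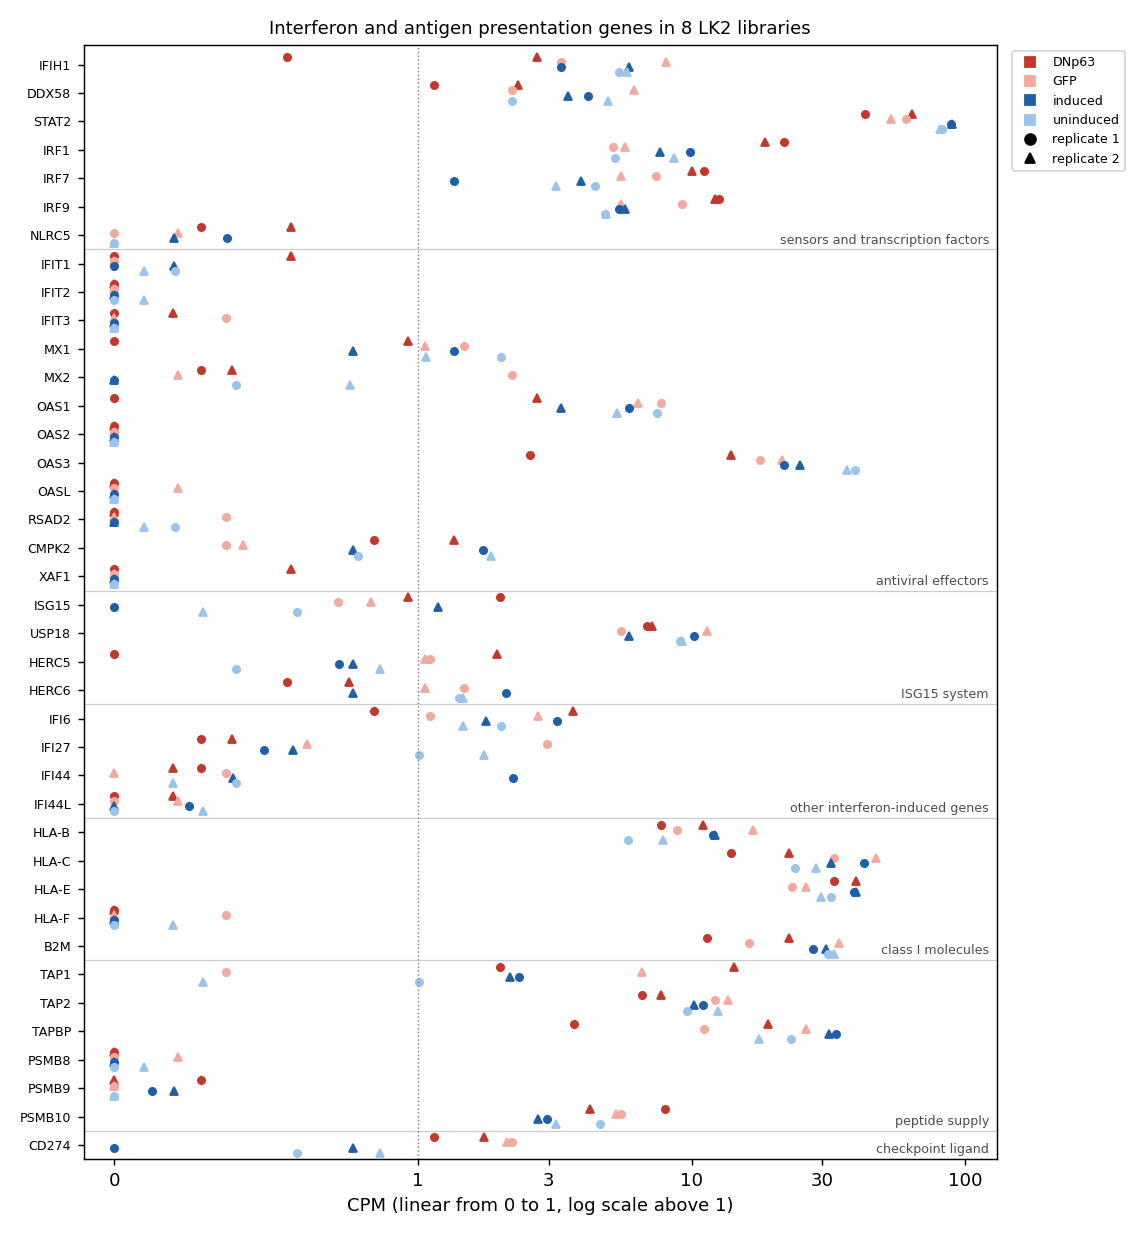
CPM of each of the 39 members (rows, grouped by role) in the 8 libraries, on an axis that is linear up to 1 CPM and logarithmic above it. Circles are replicate 1, triangles replicate 2, and the dotted line marks 1 CPM. The 16 near-zero members sit mostly left of the line, 8 of them among the antiviral effectors.

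Of the 39 members, 19 passed the count filter and entered edgeR's quasi-likelihood test across 12303 genes, with Benjamini-Hochberg adjustment over all of them and a call at an adjusted p below 0.05. Constitutive DNp63 against GFP called 2 of the 19, IRF1 higher and HLA-C lower, when 8.16% of all genes tested were called, 4.17% higher and 3.99% lower. The median log2 fold change of the 19 was −0.46, with 7 positive and 12 negative, beside a median of 0.01 over all genes. That median was 0.0945 without GFP replicate 2 and −0.93 without DNp63 replicate 2. The effect averaged over both vector systems called 1 member, IRF1, higher, when 5.67% of all genes were called (3.26% higher and 2.41% lower), and the members' median was −0.13 beside −0.01 for all genes. Induced against uninduced cells called none of the 19, when 0.284% of all genes were called, 0.236% higher and 0.0488% lower. None of the 19 reached an unadjusted p below 0.05 there either, beside 6.04% of all genes. That fit shares its estimate of the spread with the constitutive libraries. DESeq2 called none of the 19, when it called 110 of the 12303 genes. A fit of the inducible libraries alone called 2 (OAS3 and TAPBP), when 6.53% of genes were called in that fit. The median induced log2 fold change was 0.07, with 10 positive and 9 negative, beside −0.0011 for all genes. These libraries hold bulk RNA, in which fewer expressing cells and less RNA per cell cannot be told apart.

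**Figure D2:**
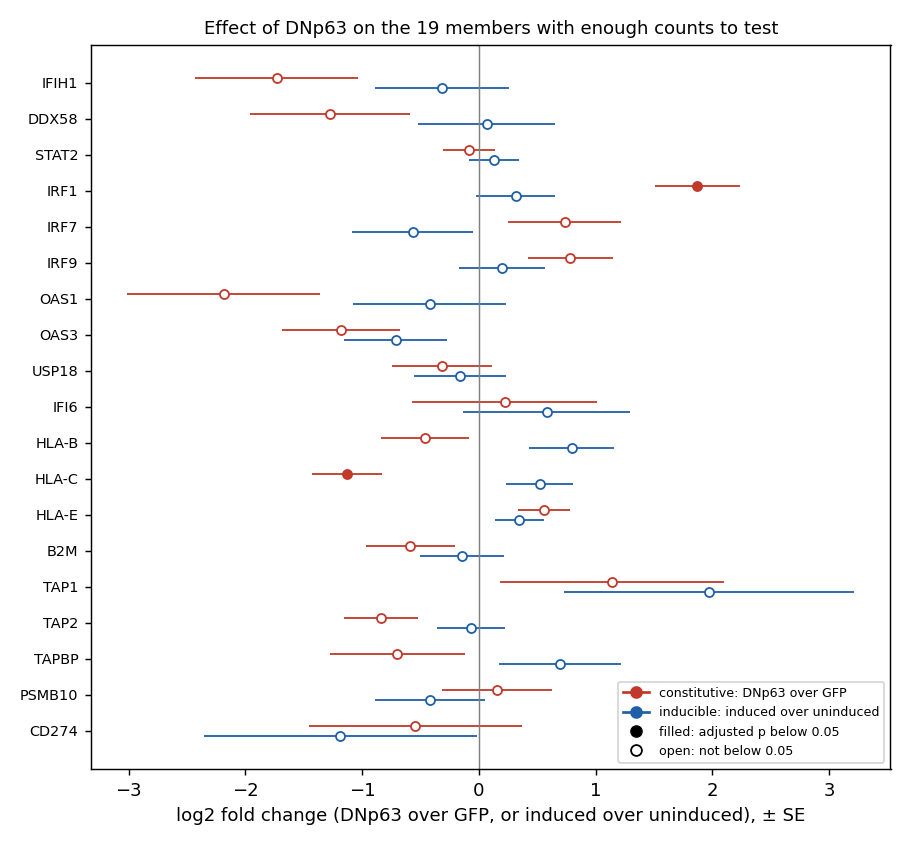
Log2 fold change with its standard error for each of the 19 tested members (rows), for DNp63 over GFP in red and induced over uninduced in blue. Filled points had an adjusted p below 0.05: IRF1 at 1.87 and HLA-C at −1.13, both in the constitutive comparison.

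IRF1, the transcription factor that drives many interferon-gamma targets including class I genes, rose with constitutive DNp63. It had 21.7 and 18.6 CPM in DNp63 libraries, against 5.16 and 5.71 CPM in GFP libraries. The induced libraries had 9.87 and 7.66 CPM, against 5.22 and 8.64 CPM in uninduced libraries. Both DNp63 libraries lay far above all 6 others, whereas induced and uninduced libraries overlapped. The log2 fold change was 1.87 ± 0.36 (SE) for DNp63 over GFP (adjusted p = 0.0104) and 0.32 ± 0.34 for induced over uninduced (adjusted p = 0.991). Averaged over both systems it was 1.09 ± 0.25 (adjusted p = 0.0272). Leaving out GFP replicate 2 ended the constitutive call (adjusted p = 0.0663), as did a fit of the constitutive libraries alone (0.0533). The averaged call was lost without GFP replicate 2 (0.0783), induced replicate 1 (0.145) or 2 (0.0642), or uninduced replicate 1 (0.141) or 2 (0.0592). The gain held its size in each vector, at 2.00 on the log2 scale within pLEX_306 and 1.64 within pLEX_307.

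The other factors of the response showed no call. IRF9, the DNA-binding subunit of the complex on ISREs, had 12.5 and 12.2 CPM in DNp63 libraries, against 9.22 and 5.50 CPM in GFP libraries. In the inducible cells it had 5.43 and 5.70 CPM when induced, against 4.82 and 4.85 CPM when uninduced. Its groups did not overlap in either system, yet the log2 fold changes were 0.78 ± 0.37 (adjusted p = 0.234) and 0.20 ± 0.37. IRF7, the factor that amplifies type I interferon transcription, had 11.1 and 10.1 CPM in DNp63 libraries, against 7.38 and 5.50 CPM in GFP libraries. Its induced libraries had 1.36 and 3.93 CPM, against 4.42 and 3.20 CPM in uninduced libraries. The IRF7 groups separated in the constitutive cells (0.73 ± 0.49, adjusted p = 0.419) and overlapped in the inducible ones (−0.57 ± 0.52). STAT2, the transactivating subunit of that complex, ranged from 43.0 to 63.8 CPM in DNp63 libraries and from 53.3 to 60.9 CPM in GFP libraries. It was 88.7 and 89.6 CPM in induced libraries, against 82.4 and 80.7 CPM in uninduced libraries, a log2 fold change of 0.13 ± 0.21.

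The RNA sensors IFIH1 (MDA5) and DDX58 (RIG-I), which start interferon production on binding double-stranded RNA, had low counts. IFIH1 had 0.570 and 2.71 CPM in DNp63 libraries, against 3.32 and 8.03 CPM in GFP libraries. It had 3.33 and 5.89 CPM in induced libraries, against 5.43 and 5.82 CPM in uninduced libraries. The constitutive groups did not overlap and the inducible ones did, with log2 fold changes of −1.73 ± 0.70 (adjusted p = 0.151) and −0.31 ± 0.57. The constitutive difference was called without the count filter (adjusted p = 0.0273), and it lay between −3.33 without DNp63 replicate 2 and −0.91 without GFP replicate 2. DDX58 had 1.14 and 2.32 CPM in DNp63 libraries, against 2.21 and 6.13 CPM in GFP libraries, overlapping groups with a log2 fold change of −1.28 ± 0.69 (adjusted p = 0.293). It had 4.19 and 3.54 CPM in induced libraries, against 2.21 and 4.95 CPM in uninduced libraries, which also overlapped (0.07 ± 0.58).

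Of the 12 antiviral effectors, only OAS1 and OAS3 had enough counts to test. Both make 2′-5′ oligoadenylate, the messenger that activates RNase L. OAS3 had 2.56 and 13.9 CPM in DNp63 libraries, against 17.7 and 21.4 CPM in GFP libraries. It had 21.7 and 24.9 CPM in induced libraries, against 39.6 and 36.8 CPM in uninduced libraries. OAS3 was lower with DNp63 in every library of both systems, without overlap, a pattern whose share among all genes was not counted. Its log2 fold change was −1.18 ± 0.51 in the constitutive cells (adjusted p = 0.189), −0.71 ± 0.44 in the inducible cells (adjusted p = 0.945) and −0.95 ± 0.34 averaged (adjusted p = 0.146), none of them called. The inducible difference was called when those 4 libraries were fitted alone (adjusted p = 0.00801). The averaged and constitutive ones were called without the count filter (0.000563 and 0.00548), where more genes were called in all (1372 and 1791, against 697 and 1004). Without DNp63 replicate 2, which leaves only the lower DNp63 library, they were −1.82 and −2.93. The DNp63 libraries differed strongly between themselves, so that the constitutive difference was −2.63 within pLEX_306 and −0.60 within pLEX_307.

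OAS1 had 0 and 2.71 CPM in DNp63 libraries, against 7.74 and 6.34 CPM in GFP libraries. In the inducible cells it had 5.92 and 3.34 CPM when induced, against 7.44 and 5.34 CPM when uninduced. The constitutive groups did not overlap and the inducible groups did. The log2 fold change for DNp63 over GFP was −2.19 ± 0.82 (adjusted p = 0.124 with edgeR and 0.0427 with DESeq2). The edgeR adjusted p was 0.00237 without the count filter, in a fit that called 1791 genes against 1004 with the filter. Without DNp63 replicate 2 the log2 fold change was −8.30, an estimate resting on a single DNp63 library with 0 counts. For induced over uninduced the log2 fold change was −0.42 ± 0.66.

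The remaining effectors had too few counts for the test. MX1, a GTPase that blocks incoming viruses, had 0 and 5 counts in DNp63 libraries, against 4 and 5 in GFP libraries, and 11 and 4 counts in induced libraries, against 10 and 11 in uninduced libraries. Its relative MX2 had no count in both induced libraries together, against 10 in the uninduced ones. MX2 was 2.88-fold lower when the induced sum was set at 3 counts. Its exact 95% interval for counting error reached up to a ratio of 0.516, and 8 of the 10 uninduced counts came from replicate 2. CMPK2, a mitochondrial nucleotide kinase, had 3 and 7 counts in DNp63 libraries, against 1 and 2 in GFP libraries, and 14 and 4 counts in induced libraries, against 4 and 19 in uninduced libraries. The MX1 and CMPK2 counts overlapped between induced and uninduced libraries, and libraries differ in depth.

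In the ISG15 system, which attaches a ubiquitin-like tag to proteins, only USP18, the protease that removes the tag and dampens receptor signalling, was tested. It had 6.84 and 7.16 CPM in DNp63 libraries, against 5.53 and 11.4 CPM in GFP libraries, and 10.2 and 5.89 CPM in induced libraries, against 9.04 and 9.22 CPM in uninduced libraries. Its groups overlapped in both systems, with log2 fold changes of −0.32 ± 0.43 and −0.16 ± 0.40. ISG15 itself had 7 and 5 counts in DNp63 libraries, against 2 and 4 in GFP libraries, and 0 and 6 counts in induced libraries, against 3 and 3 in uninduced libraries. The ligase HERC5 had 0 and 10 counts in DNp63 libraries, against 3 and 5 in GFP libraries. HERC6, its relative, had 2 and 4 counts in DNp63 libraries, against 4 and 5 in GFP libraries. Scaled to CPM, HERC5 overlapped between DNp63 and GFP libraries and HERC6 lay lower in both DNp63 libraries. The induced libraries had 6 and 4 counts of HERC5 and 17 and 4 of HERC6, against 2 and 9 of HERC5 and 7 and 15 of HERC6 in the uninduced libraries.

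Among the other interferon-induced genes, IFI6, a mitochondrial survival protein, had 0.855 and 3.68 CPM in DNp63 libraries, against 1.11 and 2.75 CPM in GFP libraries. It had 3.21 and 1.77 CPM in induced libraries, against 2.01 and 1.46 CPM in uninduced libraries, and both pairs of groups overlapped. IFI27 had 3 counts in DNp63 libraries against 11 in GFP libraries, a ratio of CPM of 0.234 (exact 95% interval 0.0419 to 0.885). It had 7 counts in induced against 23 in uninduced libraries, a ratio of 0.352 (0.128 to 0.848). These intervals cover counting error only. Of the 11 GFP counts 8 came from replicate 1, at 2.95 CPM against 0.634 CPM in replicate 2. Of the 23 uninduced counts 18 came from replicate 2, the deepest library. In CPM the uninduced libraries had 1.00 and 1.75, against 0.493 and 0.589 in induced libraries. IFI44 had 20 counts in induced and 4 in uninduced libraries, a ratio of 5.79 (1.94 to 23.3), with 18 of the 20 in induced replicate 1.

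Of the 4 class I molecules tested, HLA-C, HLA-B and B2M had negative constitutive log2 fold changes and HLA-E a positive one. Only HLA-C was called, and whether these genes differ from each other was not tested. HLA-C, a classical class I heavy chain that presents peptides to T cells and engages receptors of natural killer cells, fell with constitutive DNp63. It had 14.0 and 22.6 CPM in DNp63 libraries, against 33.2 and 47.2 CPM in GFP libraries. It had 42.7 and 32.4 CPM in induced libraries, against 23.9 and 28.3 CPM in uninduced libraries. The groups did not overlap in either system, with DNp63 libraries below GFP libraries and induced libraries above uninduced ones. The log2 fold change was −1.13 ± 0.30 for DNp63 over GFP (adjusted p = 0.0451), at −1.23 within pLEX_306 and −1.05 within pLEX_307, and 0.52 ± 0.29 for induced over uninduced (adjusted p = 0.927). The constitutive call lay close to the threshold. It was lost without DNp63 replicate 1 (adjusted p = 0.124), GFP replicate 2 (0.248), induced replicate 1 (0.0835) or 2 (0.0825), or uninduced replicate 1 (0.0883) or 2 (0.0888), and in the constitutive libraries alone (0.184). HLA genes are close paralogs and highly polymorphic, and short paired reads can be shared or lost among them, so their counts are uncertain.

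HLA-B, another classical heavy chain, had 7.69 and 11.0 CPM in DNp63 libraries, against 8.85 and 16.7 CPM in GFP libraries, which overlapped (−0.46 ± 0.38). It had 11.96 and 12.2 CPM in induced libraries, against 5.83 and 7.86 CPM in uninduced libraries, which did not overlap (0.80 ± 0.36, adjusted p = 0.825). HLA-E, the ligand of the inhibitory NKG2A receptor, had 33.1 and 39.9 CPM in DNp63 libraries, against 23.2 and 26.2 CPM in GFP libraries. It had 39.1 and 39.9 CPM in induced libraries, against 32.4 and 29.8 CPM in uninduced libraries. HLA-E was thus higher with DNp63 in every library of both systems, but no test called it: 0.56 ± 0.22 (adjusted p = 0.159) constitutive, 0.35 ± 0.21 (0.945) induced and 0.45 ± 0.15 (0.128) averaged. B2M, the light chain every class I molecule needs, had 11.4 and 22.6 CPM in DNp63 libraries, against 16.2 and 34.7 CPM in GFP libraries, and 27.7 and 30.8 CPM in induced libraries, against 31.6 and 33.0 CPM in uninduced libraries. B2M overlapped in the constitutive cells (−0.59 ± 0.38) and lay slightly lower in the induced libraries (−0.14 ± 0.36), neither called. Within vectors, B2M in DNp63 minus GFP was −0.50 for pLEX_306 and −0.61 for pLEX_307.

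**Figure D3:**
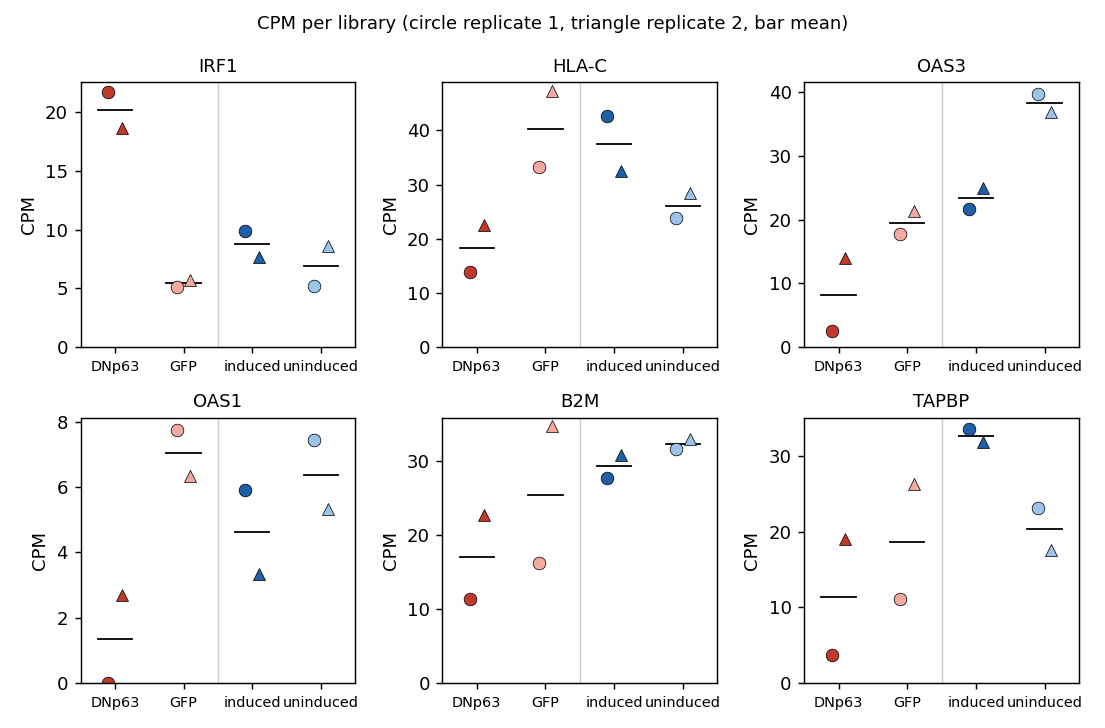
CPM per library for 6 members, with DNp63 beside GFP and induced beside uninduced in each panel; circles are replicate 1, triangles replicate 2 and bars the group mean of 2 libraries. IRF1 stands at 21.7 and 18.6 CPM in DNp63 libraries, above the other 6, while HLA-C is below GFP in DNp63 libraries and above uninduced in induced libraries.

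In peptide supply, the transporter subunit TAP1 differed widely between replicates. It had 1.99 and 14.3 CPM in DNp63 libraries, against 0.369 and 6.55 CPM in GFP libraries, and 2.34 and 2.16 CPM in induced libraries, against 1.00 and 0.291 CPM in uninduced libraries. The constitutive groups overlapped and the inducible ones did not, with log2 fold changes of 1.14 ± 0.96 (adjusted p = 0.528) and 1.97 ± 1.24 (adjusted p = 0.945). Without DNp63 replicate 2 the constitutive value was −0.93. Averaged over both systems TAP1 was at 1.55 (adjusted p = 0.304), a call without the count filter (0.0108), and uninduced over GFP was −2.72 (0.530), also a call without the filter (0.0119). Its partner TAP2 had 6.55 and 7.74 CPM in DNp63 libraries, against 12.2 and 13.5 CPM in GFP libraries, and 11.0 and 10.2 CPM in induced libraries, against 9.65 and 12.4 CPM in uninduced libraries. TAP2 separated in the constitutive cells only, at −0.84 ± 0.32 (adjusted p = 0.135), against −0.07 ± 0.29 in the inducible cells.

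TAPBP (tapasin), which bridges TAP to empty class I molecules, had 3.70 and 18.96 CPM in DNp63 libraries, against 11.1 and 26.2 CPM in GFP libraries. It had 33.5 and 31.8 CPM in induced libraries, against 23.1 and 17.6 CPM in uninduced libraries. The constitutive groups overlapped (−0.70 ± 0.58, adjusted p = 0.523) and the induced libraries were the higher ones (0.69 ± 0.52, adjusted p = 0.968; 0.0156 in the inducible libraries alone). Without DNp63 replicate 2 the constitutive value was −2.37 (adjusted p = 0.0232), and without GFP replicate 2 it was 0.0970. TAPBP overlaps RGL2, and no source used here says whether counting took account of strand, so some of its reads may come from RGL2. PSMB10, an immunoproteasome subunit, had 7.98 and 4.26 CPM in DNp63 libraries, against 5.53 and 5.29 CPM in GFP libraries, which overlapped. It had 2.96 and 2.75 CPM in induced libraries, against 4.62 and 3.20 CPM in uninduced libraries, without overlap and without a call (−0.42 ± 0.47). CD274 (PD-L1), the checkpoint ligand, had 1.14 and 1.74 CPM in DNp63 libraries, against 2.21 and 2.11 CPM in GFP libraries. It had 0 and 0.786 CPM in induced libraries, against 0.603 and 0.874 CPM in uninduced libraries, and its log2 fold changes of −0.54 ± 0.91 and −1.19 ± 1.17 had wide errors.

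The difference between the systems (the induced effect minus the constitutive effect) was tested within the same fit. No member was called by edgeR, when 0.545% of all genes were called (0.293% higher and 0.252% lower); 3 of 19 (15.8%) had an unadjusted p below 0.05, beside 12.2% of all genes. DESeq2 called 1, HLA-C, when it called 2.15% of all genes. The median difference was 0.44 over the 19 members, beside −0.01 over all genes. For HLA-C the difference was 1.65 ± 0.41 on the log2 scale (adjusted p = 0.137 with edgeR and 0.0325 with DESeq2, 0.00295 with edgeR without the count filter and 0.0246 without DNp63 replicate 2). For IRF1 it was −1.56 ± 0.49 (adjusted p = 0.231). Uninduced against GFP cells, the comparison of the controls, called no member with edgeR, when it called 0.00813% of all genes. With edgeR 3 of 19 (15.8%) had an unadjusted p below 0.05, beside 9.10% of all genes. DESeq2 called no member there either, when it called 57 genes. TP63 stood at 12.7 and 14.8 CPM in the uninduced libraries, above both GFP libraries.

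Many members differed between the libraries made with pLEX_306 and pLEX_307. In the DNp63 group 15 of 19 tested members (78.9%) were higher in the pLEX_307 library, beside 50.5% of all genes tested, and in the GFP group 13 of 19 (68.4%), beside 50.2%. In both groups at once it was 12 of 19 (63.2%), beside 28.9% of all genes. The inducible libraries, which share 1 vector, had 9 of 19 (47.4%) induced and 10 of 19 (52.6%) uninduced members higher in replicate 2. TAP1 was 2.64 higher on the log2 scale in the pLEX_307 library of the DNp63 group and 3.25 higher in that of the GFP group, and B2M was 0.97 and 1.08 higher. IFIH1 (1.72 and 1.19) and TAPBP (2.25 and 1.22) went the same way, whereas OAS1 was 3.10 higher in the DNp63 group and differed by −0.27 in the GFP group. With 1 library per vector and group, vector, replicate and sequencing depth cannot be told apart. Taken within each vector, DNp63 minus GFP had 7 members higher and 12 lower both times. The median was −0.50 for pLEX_306 and −0.46 for pLEX_307, beside 0.01 and 0.0048 over all genes. The 7 were not all the same genes: USP18 and PSMB10 were higher only in pLEX_306, IFI6 and STAT2 only in pLEX_307. Where groups overlapped, the direction held in both vectors for B2M, for DDX58 (−0.78 and −1.28) and for HLA-B (−0.19 and −0.58). It also held for TAP1 (1.69 and 1.09) and TAPBP (−1.49 and −0.46).

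**Figure D4:**
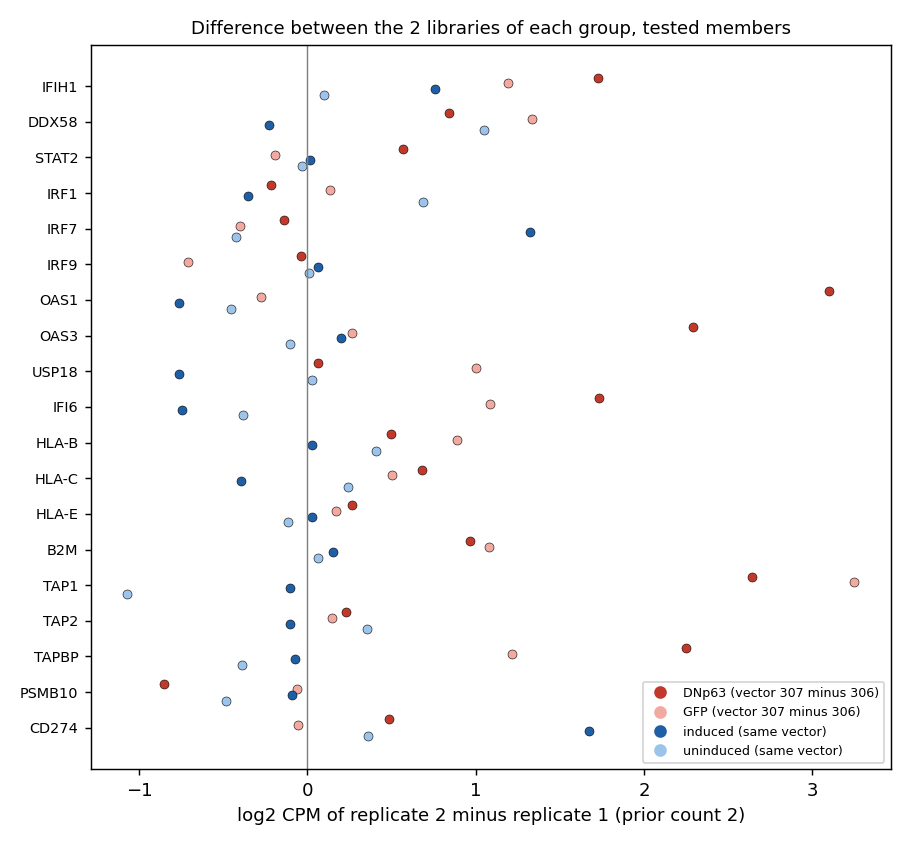
Log2 CPM of replicate 2 minus replicate 1 for the 19 tested members (rows) in each group, with 2 counts added as a prior. In the DNp63 and GFP groups the replicates carry different vectors, and 15 and 13 of 19 members lie right of 0; in the induced and uninduced groups, with 1 vector, 9 and 10 do.

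The rest of the pathway was read from lists outside the 39. No interferon gene had enough counts to test: of 9 ligand genes in the table, IFNB1, IFNG, IFNA2, IFNK, IFNL1, IFNL2 and IFNL3 had no count in any library, IFNA1 had 2 counts and IFNE had 4. Of 14 tested receptors and signalling genes, JAK1 rose and SOCS1 fell in the constitutive comparison. The kinase JAK1 had 52.2 and 59.2 CPM in DNp63 libraries, against 26.2 and 21.4 CPM in GFP libraries, and 20.8 and 27.7 CPM in induced libraries, against 26.3 and 23.2 CPM in uninduced libraries. Its constitutive log2 fold change was 1.24 ± 0.24 (adjusted p = 0.0115), lost without GFP replicate 2 (0.0851) and in the constitutive libraries alone (0.0824). SOCS1, the feedback inhibitor of JAK kinases, had 18.2 and 25.9 CPM in DNp63 libraries, against 75.6 and 38.3 CPM in GFP libraries, at −1.34 ± 0.34 (adjusted p = 0.0396). It had 87.9 and 58.1 CPM in induced libraries, against 77.4 and 69.99 CPM in uninduced libraries, which overlapped. SOCS1 lost its call without DNp63 replicate 1, GFP replicate 1, or any one of the 4 inducible libraries, with adjusted p between 0.0661 and 0.160, and in the constitutive libraries alone (0.138).

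Of 9 tested nucleic acid sensing genes, edgeR and DESeq2 called none in any comparison. The smallest p-values of the averaged effect belonged to MAVS (0.30 ± 0.14, adjusted p = 0.279), TICAM1 and TREX1. Of 17 tested further interferon-stimulated genes, 3 rose and 2 fell with constitutive DNp63, and the median of the 17 was 0.05. The lectin LGALS3BP had 2.28 and 6.77 CPM in DNp63 libraries, against 21.4 and 21.1 CPM in GFP libraries, and 8.63 and 11.0 CPM in induced libraries, against 17.7 and 12.8 CPM in uninduced libraries. It was lower with DNp63 in both systems without overlap, at −2.16 ± 0.43 constitutive (adjusted p = 0.0115) and −1.40 ± 0.29 averaged (adjusted p = 0.018). The averaged call was lost without GFP replicate 2 or any one of the 4 inducible libraries (adjusted p between 0.0535 and 0.120), the constitutive one without GFP replicate 2 (0.0591) and in the constitutive libraries alone (0.0753). TRIM14, an adaptor of antiviral signalling, fell to 30.5 and 33.5 CPM in DNp63 libraries, against 73.4 and 64.1 CPM in GFP libraries (−1.10 ± 0.21, adjusted p = 0.011; 0.101 in the constitutive libraries alone). It had 55.3 and 59.3 CPM in induced libraries, against 52.0 and 66.6 CPM in uninduced libraries, which overlapped. Its averaged value was −0.58 ± 0.15 (adjusted p = 0.0467), a call lost without any one library other than DNp63 replicate 2, with adjusted p up to 0.280, and with the replicate block (0.0551).

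LAMP3, a lysosomal protein of maturing dendritic cells, rose to 70.7 and 46.4 CPM in DNp63 libraries, against 19.5 and 3.17 CPM in GFP libraries (2.47 ± 0.56, adjusted p = 0.026). WARS, a tRNA synthetase induced by interferon-gamma, had 1469 and 688 CPM in DNp63 libraries, against 430 and 175 CPM in GFP libraries (1.84 ± 0.40, adjusted p = 0.0208). It was lower in both induced libraries, at 239 and 245 CPM, against 350 and 373 CPM in uninduced libraries (−0.58 ± 0.40, adjusted p = 0.958). EPSTI1 had 72 counts in DNp63 and 7 in GFP libraries, a CPM ratio of 8.82 (exact 95% interval 4.07 to 22.7, counting error only; adjusted p = 0.0464), and 3 counts in induced as in uninduced libraries. LAMP3 had 4.07 and 4.32 CPM in induced libraries, against 3.22 and 3.79 CPM in uninduced libraries (0.24 ± 0.65). The 3 constitutive calls of LAMP3, WARS and EPSTI1 also depended on single libraries: all were lost without DNp63 replicate 1 (adjusted p = 0.0641 for LAMP3, 0.0721 for WARS and 0.210 for EPSTI1) and in the constitutive libraries alone (0.112, 0.108 and 0.0695). Without induced replicate 1 or 2, or uninduced replicate 1, LAMP3 had an adjusted p of 0.0668, 0.0675 and 0.0504. WARS lost its call without GFP replicate 2 (0.102) and induced replicate 1 (0.0574) or 2 (0.0578). EPSTI1 lost it without either GFP library (0.127 and 0.200) or either uninduced library (0.0877 and 0.0859), and with the replicate block (0.0575).

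Of 18 tested further antigen presentation genes, CTSS was called in the averaged effect and none in the constitutive or induced comparison. CTSS (cathepsin S), a protease of the class II pathway, had 5 and 30 counts in DNp63 libraries, against 0 and 3 in GFP libraries, and 37 and 13 counts in induced libraries, against 5 and 4 in uninduced libraries. The CPM ratio was 10.0 (exact 95% interval 3.15 to 50.8) for DNp63 over GFP and 6.43 (3.13 to 14.9) for induced over uninduced, with no overlap between groups in either system. The averaged adjusted p was 0.036, and it lay between 0.0658 and 0.184 without any one library other than DNp63 replicate 1. The next smallest averaged p-values in that list belonged to PSME1 (adjusted p = 0.276) and CANX. No gene of these lists was called for induced over uninduced cells.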

How the data were processed

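RNA of 8 LK2 libraries was analysed from the authors' deposited table of raw read counts per gene, made of paired-end reads with TopHat2 2.1, HTSeq and SAMtools on hg19 (GRCh37), per the submitters' processing notes; how strand was treated in counting was not stated in those notes. Counts were tested with edgeR 4.0.16 (quasi-likelihood test, TMM scaling, R 4.3.3) on 4 group means over all 8 libraries, for the 12303 genes that passed filterByExpr at a minimum count of 10, with Benjamini-Hochberg adjustment over all of them and calls at an adjusted p below 0.05. CPM used the total count times the TMM factor, and log2 CPM a prior count of 2. Promoters came from RefSeq (GRCh38.p14) and were matched by symbol; the ISRE core of 9 letters replaced a longer one after that had been searched. Groups and vector numbers came from the labels. The number of a DNp63 or GFP replicate names its vector, which pairs those libraries; deviations from group means correlated at 0.22 between DNp63 and GFP and at −0.03 between induced and uninduced libraries. Alternatives were DESeq2 1.42.0, its size factors, no filter, non-legacy estimates, a replicate block, each vector system alone, and each library left out. The test was checked on simulated counts, drawn with the fitted dispersions and with no difference between vectors. That check therefore does not cover spread that comes from the vectors. Library totals of 2758158 to 10372248 counts limit precision for genes of few counts, and exact intervals cover counting error only. All members are accounted for, and values are given for those tested and the defining members of each role; other pathway genes are named where called or among the 3 smallest averaged p-values of their list. The members and lists were chosen with earlier results of these data known.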

Additional observations from a re-analysis of the deposited data

How the results depend on the processing

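Without the count filter, calls numbered 1372 genes and 4 members averaged, 1791 and 5 constitutive (member median −0.50), 558 and 2 for the difference between systems, 245 and 1 for uninduced minus GFP, and 242 genes for induced minus uninduced. DESeq2 called 110 genes for induced minus uninduced, 265 and 1 member for the difference and 57 genes for the controls. Each system alone gave 282 genes and 0 members constitutive and 803 and 2 induced. Over these and the other settings that kept all libraries of a comparison, none of the 65 single-gene values followed turned its direction, and of their 370 values 11 lost and 13 gained a call. Leaving out each library in turn, called genes and members ranged from 224 to 1112 and 0 to 3 averaged, 451 to 1398 and 0 to 5 constitutive, 2 to 100 and 0 to 0 induced, 0 to 449 and 0 to 4 for the difference, and 0 to 45 and 0 to 0 for the controls. The member medians ranged from −0.33 to −0.00039 averaged, −0.93 to 0.0945 constitutive, −0.16 to 0.16 induced, −0.22 to 1.05 for the difference and −0.38 to 0.42 for the controls.

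Uncalled members turned direction with one library out, in fits that did not pair libraries by vector. In the constitutive comparison the ranges were −1.20 to 0.0924 for B2M, −0.82 to 0.0945 for HLA-B, −1.24 to 1.10 for IFI6, −0.34 to 0.56 for PSMB10, −0.40 to 0.17 for STAT2, −0.93 to 4.43 for TAP1 (−3.60 to 0.57 for uninduced over GFP), −2.37 to 0.10 for TAPBP and −0.70 to 0.34 for USP18. In the inducible comparison they were −5.15 to 0.0337 for CD274, −0.35 to 0.81 for DDX58, −0.76 to 0.0630 for IFIH1, −1.45 to 0.0679 for IRF7, −0.23 to 0.14 for TAP2 and −0.63 to 0.16 for USP18. Within each vector, DNp63 minus GFP kept its direction for B2M, HLA-B, TAP1 and TAPBP. It turned between vectors for IFI6, PSMB10, STAT2 and USP18. The causes were not tested.

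Replicate numbers go with the vector in DNp63 and GFP libraries and are only shared in the inducible ones. With the replicate block, 735 genes were called averaged, 1017 constitutive, 37 induced, 78 for the difference and 2 for the controls, and the members' counts stayed at 1, 2, 0, 0 and 0. The block is a single term shared by all 4 groups, and a block for the vectors within the constitutive libraries was not fitted. The shared block changed no member's call, which does not tell how calls would stand with the vectors paired.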
